A study of Mus musculus with 6 samples.

Results

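The cell cycle and proliferation genes described here are 30 protein-coding genes of DNA replication and mitosis, chosen by name from the 24602 genes of the deposited expression table. All 30 had exactly 1 row. RNA was measured in the left ventricle of wild type mice 5 weeks after transverse aortic coarctation (TAC), which narrows the aorta and loads the ventricle with pressure, or after a sham operation. There were 6 poly(A)-selected libraries, 3 from TAC and 3 from sham hearts, and their age, sex and strain were not given. The labels number the samples of a group and do not say whether these were different mice, so the spread behind each p-value is that of these libraries alone and may be technical.

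Dividing cells make these transcripts in waves. The Mcm2 to Mcm7 helicase, the sliding clamp Pcna and the nucleotide enzymes Rrm2 and Tyms serve DNA replication, and their genes are known targets of E2F factors in late G1 and S phase. Cyclins A and B with Cdk1, the Aurora and Polo kinases, the spindle checkpoint, the mitotic kinesins and the proliferation antigen Mki67 serve G2 and mitosis, and their promoters are known to carry CCAAT boxes, bound by NF-Y, and a cell cycle homology region (CHR), bound by the DREAM complex. Adult mouse cardiomyocytes rarely divide, so that in the intact ventricle such RNA can come from several kinds of cell.

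The promoters of the 2 waves differ in these letters, and 4 of them are printed here because the results below are ordered by the wave a gene belongs to. RefSeq promoter windows of GRCm38.p6, from 250 bases before to 50 bases after the transcription start, were matched for 26 of the 30 genes, all but Ccna2, Aurkb, Kif20a and Tpx2. Capitals mark matches on either strand to the CCAAT box (CCAAT), the CHR (TTTGAA or TTCGAA) or an E2F site (TTTCCCGC, TTTCGCGC, TTTGCCGC or TTTGGCGC). Each line gives the 250 bases before the start, 5′ to 3′ on the strand of the gene.
Mki67, chr7:135716380-135716629, minus strand: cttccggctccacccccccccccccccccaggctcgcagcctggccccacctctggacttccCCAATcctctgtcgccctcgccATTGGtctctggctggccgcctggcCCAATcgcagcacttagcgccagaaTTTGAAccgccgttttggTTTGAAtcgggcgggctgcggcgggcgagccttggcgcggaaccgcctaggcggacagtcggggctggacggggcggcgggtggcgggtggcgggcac
Top2a, chr11:99024190-99024439, minus strand: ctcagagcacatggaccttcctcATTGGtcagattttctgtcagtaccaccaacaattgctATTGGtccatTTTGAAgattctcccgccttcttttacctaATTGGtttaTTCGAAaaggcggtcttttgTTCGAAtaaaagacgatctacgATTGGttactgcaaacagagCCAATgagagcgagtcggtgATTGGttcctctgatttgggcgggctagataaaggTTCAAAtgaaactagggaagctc
Ccnb2, chr9:70421555-70421804, minus strand: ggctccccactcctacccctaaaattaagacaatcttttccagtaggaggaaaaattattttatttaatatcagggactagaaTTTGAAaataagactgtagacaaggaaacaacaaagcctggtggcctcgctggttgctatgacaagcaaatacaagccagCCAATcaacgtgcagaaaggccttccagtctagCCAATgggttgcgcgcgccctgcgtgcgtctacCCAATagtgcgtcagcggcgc
Mcm6, chr1:128359706-128359955, minus strand: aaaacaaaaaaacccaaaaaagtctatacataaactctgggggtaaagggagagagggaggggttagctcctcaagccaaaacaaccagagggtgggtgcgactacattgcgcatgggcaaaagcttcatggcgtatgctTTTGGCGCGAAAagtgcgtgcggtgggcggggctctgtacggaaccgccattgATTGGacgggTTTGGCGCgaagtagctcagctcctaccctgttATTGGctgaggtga

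A CHR stood in 15 of 19 windows of cyclin, mitotic and chromosome genes (78.9%) and in 1 of 7 windows of replication genes (14.3%), against 19.2% of all 32851 windows. An E2F site stood in 1 of 19 windows (5.26%) of the mitotic wave and in 3 of 7 replication windows (42.9%), against 2.26% of all windows. CCAAT boxes were common to both waves, in 17 of 19 (89.5%) and 6 of 7 windows (85.7%), against 37.4% of all. In Ccnb2, which encodes cyclin B2, the 3 CCAAT boxes began 87, 54 and 21 bases before the start. In Mcm6, a helicase subunit, 2 of the 3 E2F sites overlapped each other, 110 to 99 bases before the start. A match is a description of letters only, and nothing here measured binding.

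**Figure D1:**
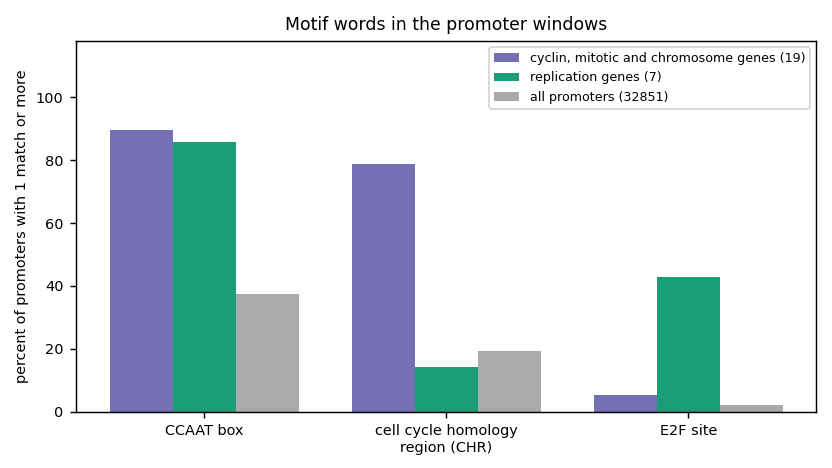
Percent of promoter windows with 1 match or more (vertical axis) to each motif, for 19 cyclin, mitotic and chromosome genes, 7 replication genes and all 32851 RefSeq windows. The CHR bar is highest for the mitotic wave (78.9%) and the E2F bar for the replication genes (42.9%).

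The transcripts were scarce in every library. Per length, 25 of the 30 had a mean below 1 FPKM (mapped fragments scaled for transcript length and library size) over the 6 libraries. Pcna was highest, at 4.27 ± 0.984 FPKM in TAC and 3.32 ± 0.635 FPKM in sham hearts (SD, n = 3 each). It was followed by the helicase genes Mcm3, Mcm5 and Mcm2 and by the mitotic activator gene Cdc20, all between 1.25 and 1.91 FPKM on average over the 6 libraries. In TAC Mcm3 (2.13 ± 0.158 FPKM) lay above Mcm5 (1.44 ± 0.410 FPKM). In sham hearts they were at 1.69 ± 0.447 and 1.60 ± 0.349 FPKM. The order of these 4 was not tested. Mki67, at 0.0505 ± 0.0551 FPKM in TAC and 0.00340 ± 0.00298 FPKM in sham hearts, ranked 24th. The last place was held by Hmmr, a spindle-bound hyaluronan receptor gene, which was listed at 0 in all but 1 library. Because FPKM this low hold few reads, the comparison used the deposited estimated counts, scaled by the library total and given as CPM.

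Library totals lay between 64026540 and 69992502 estimated counts in TAC and between 64023153 and 68121413 in sham hearts. Genes of the mitochondrial chromosome took 22.6% to 29.2% of them in TAC and 14.8% to 19.2% in sham libraries, which lowers the CPM of every nuclear gene in TAC by comparison. Low counts moved in steps: among genes with a single transcript, a count of 4 was held by 578 to 633 genes per TAC library and 574 to 615 per sham library, against 136 to 169 and 127 to 157 genes at a count of 5. A count of 4 is therefore not shown to be 4 separate reads, and no counting interval is given. All 8 ventricular cardiomyocyte markers were present, summing to between 53448 and 60740 CPM in TAC and between 72555 and 79747 CPM in sham libraries. Of 5 pressure overload markers 3 rose in TAC in edgeR's quasi-likelihood test: Nppb, a natriuretic peptide gene (adjusted p = 0.0142), Acta1, the skeletal actin gene (adjusted p = 0.0241), and Ankrd1 (adjusted p = 0.0355). These calls did not all hold without a sham library, where calls over all genes also fell, to between 4 and 14. Without 1 sham library the edgeR adjusted p was 0.0709 to 0.0746 for Nppb and 0.084 to 0.209 for Ankrd1. For Acta1 it was 0.0764 without sham replicate 1, 0.151 without sham replicate 2 and 0.0280 without sham replicate 3. With no filter on low counts Acta1 (0.0606) and Ankrd1 (0.0797) did not pass either, nor did Ankrd1 with the replicate number as a block (0.0684).

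**Figure D2:**
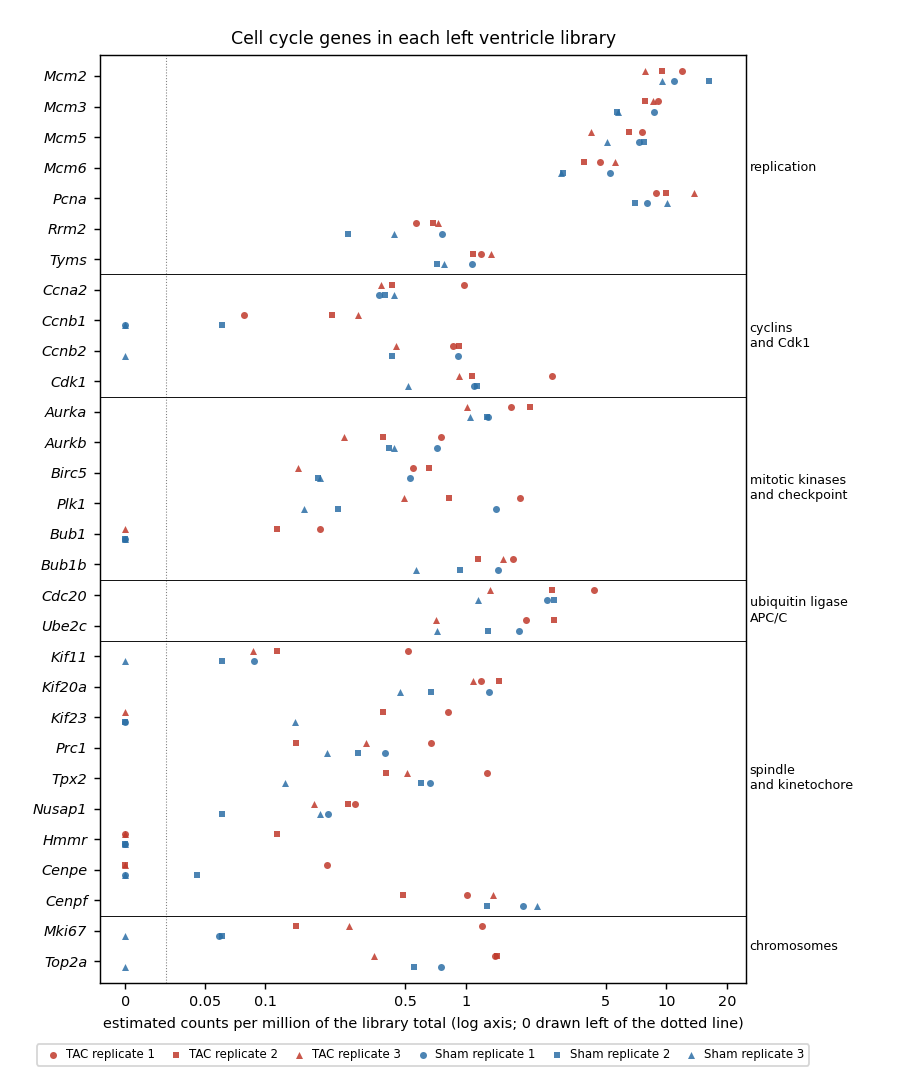
Estimated counts as CPM of the library total (log axis, zeros at the left edge) for the 30 genes in each TAC (red) and sham (blue) library, grouped by role. Apart from Ccnb1, Tyms and Mki67, the red and blue points of every gene overlap.

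The comparison asked whether pressure-loaded ventricles held more or less of these transcripts. None of the 30 passed. Of these genes, 25 had a mean count of 10 or more over the 6 libraries and were tested among 15828 genes, and Kif11, Ccnb1, Bub1, Cenpe and Hmmr were not. In edgeR 0 of the 25 were called at a Benjamini-Hochberg adjusted p under 0.05, against 0.758% of all tested genes (56 higher and 64 lower in TAC). At an unadjusted p under 0.05 there was 1 gene, Mki67, against 24.2% of all tested genes. DESeq2 called 1 gene, Mki67, against 15.3% of all, and limma on log2(FPKM + 1) called 0, against 0.676% of all. DESeq2 gave no adjusted p for Kif23 and Nusap1, and genes without one count as not called in both DESeq2 figures. The log2 fold change was positive for 21 of the 25, against 50.7% of all tested genes. Its median was 0.50, against 0.01 over all genes. That share is not matched for level. Where the mean FPKM had to reach 1, 3274 of 8795 genes were positive (median -0.14), and 3 of the 5 members kept. Most members are scarcer than that, and no share was taken over genes as scarce. The member counts describe genes chosen by name with earlier results known. The SE exceeded the size of the log2 fold change for 11 of the 25.

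The scaling changed how many of all genes were called. With TMM scaling 445 genes were higher and 274 lower in TAC, with DESeq2 size factors 419 and 319, and with library totals without mitochondrial genes 566 and 107. That last scaling moved the median over all genes to 0.18, and the median of the 25 to 0.69. With each of these 3 scalings edgeR called 0 of the 25. Leaving out TAC replicate 3 gave 2358 calls over all genes (14.9%), and 1 among the 25, Mki67. Leaving out any other library gave between 4 and 45 calls over all genes and 0 among the 25.

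**Figure D3:**
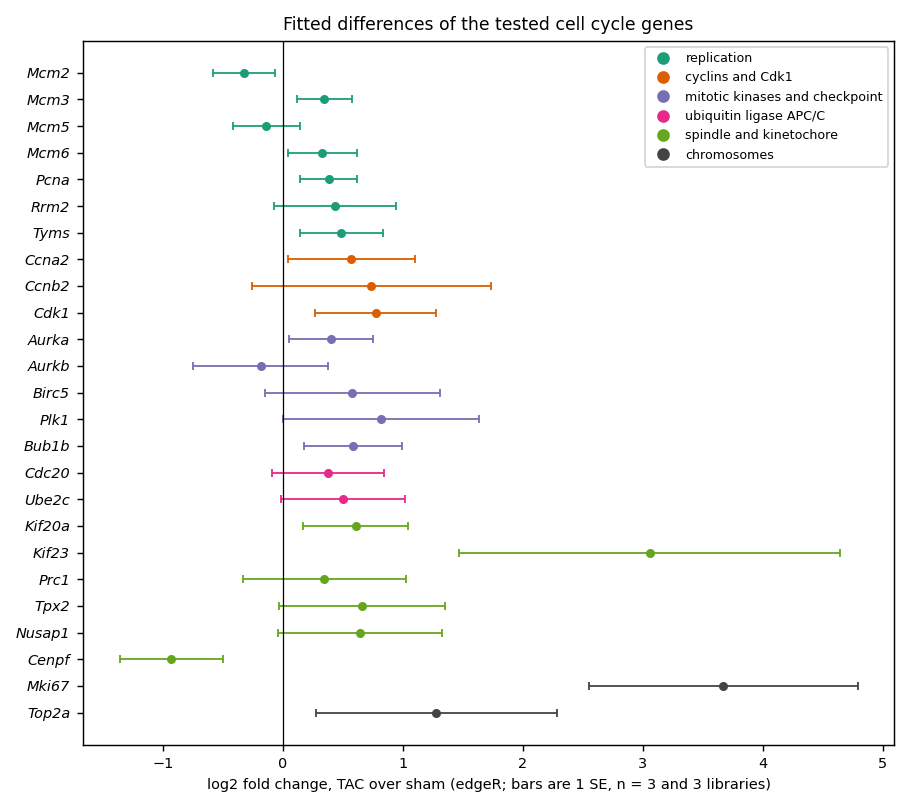
Fitted log2 fold change of TAC over sham (horizontal axis) for the 25 tested genes, coloured by role; bars are 1 SE, n = 3 and 3 libraries. Points of 21 genes lie right of 0, and the bars of Mki67 and Kif23 are the farthest right and among the widest.

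The 7 replication genes had the lowest median log2 fold change of the 6 roles, 0.35, with 5 positive and 2 negative. Pcna, the clamp that holds the polymerase on DNA, had 570, 697 and 948 estimated counts in TAC libraries, against 548, 454 and 643 in sham libraries. In CPM it measured 10.9 ± 2.54 in TAC and 8.34 ± 1.58 in sham hearts, and the groups overlapped (log2 fold change 0.38 ± 0.24, SE; edgeR adjusted p = 0.350). Its direction turned to -0.21 after trends of GC and transcript length had been taken out of each library. A processed pseudogene, Pcna-ps2, matches Pcna over 781 bases at 99.2% identity and held 10 to 20 counts in every library.

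The 4 helicase subunits did not share a direction. Mcm3 had 580, 549 and 589 counts in TAC, against 588, 370 and 367 in sham libraries, with sham replicate 1 within the TAC range in CPM (0.35 ± 0.23, adjusted p = 0.384). For Mcm6 the counts were 299, 273 and 383 in TAC and 357, 200 and 190 in sham libraries (0.33 ± 0.29, adjusted p = 0.515). Mcm2 lay the other way, with 769, 665 and 542 counts in TAC and 747, 1067 and 607 in sham libraries, the highest value being sham replicate 2 (-0.32 ± 0.26, adjusted p = 0.467). Mcm5 had 486, 455 and 292 counts in TAC and 500, 508 and 324 in sham libraries, each group lowest in replicate 3. In CPM it measured 6.11 ± 1.71 in TAC and 6.72 ± 1.45 in sham hearts (-0.14 ± 0.28, adjusted p = 0.791), and its sign turned to 0.049 with library totals without mitochondrial genes and to 0.081 with GC and length trends taken out.

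Rrm2, the small subunit of ribonucleotide reductase, had 36, 48 and 50 counts in TAC and 52, 17 and 28 in sham libraries (0.43 ± 0.51, adjusted p = 0.631). Processed pseudogenes match Rrm2 over 193 bases (98.4% identity) and 419 bases (95.5%). Tyms, thymidylate synthase, had 76, 76 and 92 counts in TAC and 73, 47 and 50 in sham libraries. In CPM all 3 TAC libraries of Tyms lay above all 3 sham libraries, as did 16.0% of all tested genes, with 15.4% lying below. Tyms measured 1.20 ± 0.124 CPM in TAC and 0.857 ± 0.189 CPM in sham hearts (0.49 ± 0.34, adjusted p = 0.414). Its longest transcript shares stretches of 150 bases or more at 95% identity or more with 18 other genes, so its counts are uncertain.

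Cdk1 and Ccna2 both had their highest value in TAC replicate 1, and the B-type cyclins did not. Cdk1, the kinase that starts mitosis, had 173, 75 and 64 counts in TAC, against 75, 74 and 33 in sham libraries. It measured 1.57 ± 0.986 CPM in TAC and 0.916 ± 0.347 CPM in sham hearts (0.77 ± 0.50, adjusted p = 0.373), and without TAC replicate 1 its log2 fold change was 0.13. Ccna2, cyclin A2, had 63, 30 and 26 counts in TAC and 25, 26 and 28 in sham libraries (0.57 ± 0.53, adjusted p = 0.536), so that only TAC replicate 1 stood clear of the sham values. On the other strand, Exosc9 overlaps 12.5% of the exonic bases of Ccna2; the strand setting of the counts is unknown here, and without strand reads of overlapping partners cannot be told apart.

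Ccnb2 had 55, 65 and 31 counts in TAC and 62, 28 and 0 in sham libraries (0.74 ± 0.996, adjusted p = 0.682), and the groups overlapped. Ccnb1, cyclin B1, was below the count filter, with 5, 15 and 20 counts in TAC and 0, 4 and 0 in sham libraries. All of its TAC values lay above its sham values, but 4 pseudogenes or copies match Ccnb1 over 383 to 1294 bases at 96.6% identity or more, so these few counts are uncertain.

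None of the mitotic kinase and checkpoint genes separated the groups; the 5 tested had a median log2 fold change of 0.58, with 4 positive and 1 negative. Plk1, the Polo-like kinase of mitotic entry, had 119, 58 and 34 counts in TAC and 96, 15 and 10 in sham libraries (0.82 ± 0.82, adjusted p = 0.566). Without sham replicate 1 its log2 fold change was 2.45. Aurka, the centrosomal Aurora kinase, had 107, 146 and 70 counts in TAC and 88, 83 and 67 in sham libraries (0.40 ± 0.35, adjusted p = 0.507).

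Aurkb, the Aurora kinase of the chromosomal passenger complex, had 48, 27 and 17 counts in TAC and 49, 27 and 28 in sham libraries (-0.19 ± 0.56, adjusted p = 0.865), a sign that turned to 0.00053 with library totals without mitochondrial genes. Birc5, survivin, a partner of Aurkb in that complex, had 35, 46 and 10 counts in TAC and 36, 12 and 12 in sham libraries (0.58 ± 0.73, adjusted p = 0.655). The pair did not share a sign in the fit. The longest Birc5 transcript matches Klhl41 over 169 bases (95.3% identity) and Trim27 over 163 bases (95.1%). Both held far more counts in every library, so the counts of Birc5 are uncertain. Bub1b, the checkpoint protein BubR1, had 110, 80 and 106 counts in TAC and 98, 61 and 36 in sham libraries (0.58 ± 0.41, adjusted p = 0.409). Bub1, a kinetochore kinase, had 12, 8 and 0 counts in TAC libraries and was listed at 0 in all 3 sham libraries, too few to test.

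Cdc20 and Ube2c work with the anaphase-promoting complex, the ubiquitin ligase that ends mitosis. Cdc20, its activator, had 279, 188 and 91 counts in TAC and 172, 180 and 74 in sham libraries (0.38 ± 0.47, adjusted p = 0.649); without TAC replicate 1 the sign turned to -0.098. Ube2c, its ubiquitin-conjugating enzyme, had 127, 192 and 49 counts in TAC and 125, 84 and 46 in sham libraries (0.50 ± 0.52, adjusted p = 0.577). In both genes the lowest library of each group was replicate 3 and the groups overlapped. Tnnc2, on the other strand, overlaps 22.8% of the exonic bases of Ube2c and held at most 6 counts in any library.

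The 6 tested spindle and kinetochore genes had a median log2 fold change of 0.62, with 5 positive and 1 negative, and Cenpf the lowest value of the 25. Cenpf, a large kinetochore protein gene, had 65, 34 and 94 counts in TAC, against 132, 83 and 145 in sham libraries. It measured 0.954 ± 0.441 CPM in TAC and 1.82 ± 0.508 CPM in sham hearts (-0.93 ± 0.43, adjusted p = 0.218), with TAC replicate 3 above sham replicate 2. With TMM scaling all 3 TAC libraries of Cenpf lay below all 3 sham libraries. Its longest transcript, of 11130 bases, shares near-identical stretches of at most 194 bases with 26 other genes, so its counts are uncertain.

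Kif23, a kinesin of the midzone that is needed for cytokinesis, had 52, 27 and 0 counts in TAC and 0, 0 and 9 in sham libraries (3.06 ± 1.59, adjusted p = 0.269). The log2 fold change of Kif23 ranged from 2.02 to 7.75 when a library was left out, so its size is not fixed by these data. Kif20a, another midzone kinesin, had 76, 102 and 75 counts in TAC and 89, 44 and 30 in sham libraries (0.61 ± 0.44, adjusted p = 0.422). Cdc23, on the other strand, overlaps 29.3% of the exonic bases of Kif20a and held between 1062 and 1750 counts per library. Prc1, which bundles midzone microtubules with these kinesins, had 43, 10 and 22 counts in TAC and 27, 19 and 13 in sham libraries (0.34 ± 0.68, adjusted p = 0.789). Rccd1, on the other strand, overlaps 11.1% of the exonic bases of Prc1.

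Tpx2, an activator of Aurka on the spindle, had 82, 28 and 35 counts in TAC and 45, 39 and 8 in sham libraries (0.66 ± 0.69, adjusted p = 0.585). Nusap1, a spindle microtubule binder, had 18, 18 and 12 counts in TAC and 14, 4 and 12 in sham libraries (0.64 ± 0.68, adjusted p = 0.593), close above the filter. Kif11, the kinesin that pushes spindle poles apart, lay close below it, with 33, 8 and 6 counts in TAC and 6, 4 and 0 in sham libraries. The kinetochore kinesin gene Cenpe had counts in TAC replicate 1 (13) and sham replicate 2 (3) alone, and Hmmr in TAC replicate 2 (8) alone.

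Mki67, which coats mitotic chromosomes and is the usual tissue marker of cycling cells, was the gene nearest to the threshold. It had 77, 10 and 18 estimated counts in TAC libraries, against 4, 4 and 0 in sham libraries. All 3 TAC libraries lay above all 3 sham libraries, and TAC replicate 1 held most of the counts. A processed pseudogene, Gm44521, matches Mki67 over 216 bases at 98.6% identity. In CPM Mki67 measured 0.535 ± 0.581 in TAC and 0.0399 ± 0.0346 in sham hearts, a difference smaller than the SD among TAC libraries. The exact 2-sided permutation test of its CPM gave p = 0.1, the smallest that 3 against 3 libraries can give. The fitted log2 fold change was 3.67 ± 1.12 (SE), with an unadjusted p of 0.00928 and an edgeR adjusted p of 0.103. DESeq2 called it, at 3.80 with an adjusted p of 0.0101, while limma on log2(FPKM + 1), where low values shrink towards 0, gave 0.065 with an adjusted p of 0.356. Without TAC replicate 1 it measured 2.28 (edgeR adjusted p = 0.322), and without TAC replicate 3 it passed (edgeR adjusted p = 0.0456).

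Top2a, the topoisomerase that untangles chromosomes before division, had 89, 100 and 24 counts in TAC and 51, 36 and 0 in sham libraries (1.28 ± 1.01, edgeR adjusted p = 0.460). TAC replicate 3 lay below 2 of the sham libraries. Mki67, Top2a and Ccnb2 were among the 8 members listed at 0 in sham replicate 3. The 3 promoters printed for them above each hold CCAAT boxes and a CHR, as do 16 of the 26 member windows. The other members at 0 there were Bub1, Kif11 and Hmmr, whose windows hold a CHR, and Ccnb1 and Cenpe, whose windows hold none.

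Added over the 23 cyclin, mitotic and chromosome genes, TAC libraries held 26.3, 18.2 and 11.6 CPM, against 17.5, 12.7 and 8.61 CPM in sham libraries. The groups overlapped, since sham replicates 1 and 2 exceeded TAC replicate 3, and the means were 18.7 ± 7.31 CPM in TAC and 12.9 ± 4.47 CPM in sham hearts. The 7 replication genes held 44.0, 39.5 and 42.0 CPM in TAC and 42.1, 40.7 and 34.5 CPM in sham libraries. In both sums TAC replicate 1 was the highest library and sham replicate 3 the lowest, and TAC replicates 2 and 3 stood in opposite order. Of the 30 genes, 15 had their highest CPM in TAC replicate 1, 7 in TAC replicate 2 and 4 in TAC replicate 3, and 11 had their lowest in sham replicate 3 alone. In these bulk samples, fewer cells of a type and less RNA per cell cannot be told apart.

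**Figure D4:**
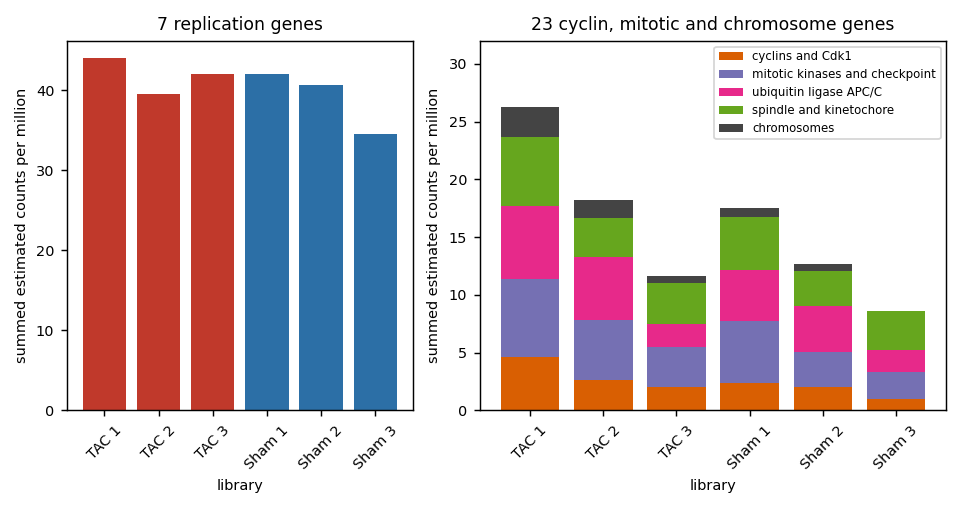
Summed CPM by library for the 7 replication genes (left, TAC red and sham blue) and for the other 23 genes stacked by role (right). The right-hand bars span 11.6 to 26.3 CPM in TAC and 8.61 to 17.5 CPM in sham libraries and overlap.

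Within TAC, the mitotic sum was lowest in replicate 3, as were some other properties of the libraries. Within sham hearts these did not all move with the mitotic sum. The sum of the 5 pressure overload markers went the other way, at 6180, 8702 and 16330 CPM in TAC replicates 1, 2 and 3. In sham replicates 1, 2 and 3 it stood at 2582, 2932 and 3379 CPM, also rising as the mitotic sum fell. Its most abundant gene was Myh7, and the 3 called markers did not all follow the sum. Across sham replicates 1, 2 and 3 Acta1 (621, 567 and 218 CPM) and Ankrd1 (411, 262 and 250 CPM) fell, and Nppb stood at 119, 139 and 101 CPM. In TAC Acta1 (2637, 4383 and 3106 CPM) and Nppb (296, 356 and 322 CPM) were highest in replicate 2. Ankrd1 rose there (1049, 1143 and 2556 CPM). Any link was not tested. TAC replicates 1 and 2 had the highest mitotic sums in TAC and also the highest mitochondrial shares (29.2% and 27.2%), with 1485 and 1493 CPM of 8 endothelial markers and 2006 and 2080 CPM of 5 erythroid markers. TAC replicate 3 had 996 CPM of the endothelial and 1011 CPM of the erythroid markers, with a mitochondrial share of 22.6%. Sham replicates 1, 2 and 3, in falling order of the mitotic sum, had 1282, 1257 and 1213 CPM of the endothelial markers but 802, 492 and 1527 CPM of the erythroid markers and mitochondrial shares of 19.2%, 14.8% and 16.7%. All 5 erythroid genes had a positive log2 fold change (median 0.84, 2 at an unadjusted p under 0.05 in edgeR). Of all tested genes 50.7% were positive and 24.2% had such a p. Summed fibroblast markers ranged from 2167 to 3212 CPM in TAC and from 2558 to 2809 CPM in sham libraries. Gene by gene, 6 of 8 fibroblast markers had a positive log2 fold change (median 0.75), against 50.7% of all tested genes. Of the 8, 3 had an unadjusted p under 0.05 in edgeR, against 24.2% of all. Macrophage markers ranged from 485 to 698 CPM in TAC and from 513 to 614 CPM in sham libraries, and pan-leukocyte markers from 58.9 to 97.5 and from 70.0 to 90.8 CPM. Mural markers ranged from 473 to 508 CPM in TAC and from 435 to 511 CPM in sham libraries, and atrial markers from 34.7 to 141 and from 38.7 to 253 CPM. T and NK cell markers ranged from 1.22 to 2.75 CPM in TAC and from 1.20 to 3.09 CPM in sham libraries, B cell markers from 2.20 to 2.96 and from 1.92 to 3.70 CPM, and neutrophil markers from 2.40 to 5.03 and from 1.76 to 5.58 CPM. Mesothelial markers ranged from 2.01 to 5.17 CPM in TAC and from 3.20 to 9.88 CPM in sham libraries. Schwann cell markers ranged from 4.81 to 6.14 CPM in TAC and from 6.86 to 11.2 CPM in sham libraries. This sum did not overlap between the groups, but each of its 3 genes did. The ventricular cardiomyocyte sum given above did not overlap either. Of its 8 genes, 2 lay below in all TAC libraries, against 15.4% of all tested genes. Leaving the overload markers aside, no gene of these 12 cell type lists or of the ventricular list passed in edgeR. The lowest edgeR adjusted p was 0.0516, and at most 3 genes of a list had an unadjusted p under 0.05, against 24.2% of all tested genes. The part of these cells in the cell cycle values was not tested.

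The rest of the pathway was counted on 3 further lists. Of 104 tested genes 0 passed in edgeR and 16 had an unadjusted p under 0.05, against 24.2% of all tested genes; limma on log2(FPKM + 1) called 0, against 0.676% of all, and DESeq2 8, against 15.3% of all. Of 29 tested replication factors and S phase enzymes 15 had a positive and 14 a negative log2 fold change (median 0.05). Their most abundant members were Pola2, a polymerase alpha subunit (-0.11 ± 0.18, edgeR adjusted p = 0.744), and Pold1, the polymerase delta catalytic subunit, at 15.8 ± 0.367 CPM in TAC and 22.6 ± 2.31 CPM in sham hearts (-0.52 ± 0.16, adjusted p = 0.111). All 3 TAC libraries lay below all 3 sham libraries in Pold1.

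Of 29 tested mitotic genes 19 were positive and 10 negative (median 0.35). The most abundant were the securin gene Pttg1 (-0.39 ± 0.21, adjusted p = 0.295) and Cenpa, the centromeric histone H3 (-0.080 ± 0.17, adjusted p = 0.802). Both are far more abundant than the mitotic genes above, at 64.6 ± 12.8 CPM of Pttg1 in TAC and 84.5 ± 18.3 CPM in sham hearts.

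Of 46 tested regulators 26 were positive and 20 negative (median 0.05). All TAC libraries lay above all sham libraries in 5 of them and below in 9, against 16.0% and 15.4% of all tested genes. Ccng1, cyclin G1, a p53 target, had 136, 132 and 132 CPM in TAC libraries, against 88.5, 71.4 and 89.6 CPM in sham libraries (0.68 ± 0.15, edgeR adjusted p = 0.0612). It passed with each of the other 3 scalings (adjusted p of 0.0440, 0.0463 and 0.0322), but measured -0.059 with GC and length trends taken out.

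The D-type cyclins, which carry cells out of rest by way of Cdk4 and Cdk6, did not share a direction. Ccnd2 measured 24.1 ± 8.93 CPM in TAC and 12.4 ± 3.99 CPM in sham hearts (0.95 ± 0.30, adjusted p = 0.111), and Ccnd1 71.3 ± 11.6 and 49.3 ± 12.4 CPM (0.53 ± 0.21, adjusted p = 0.177). Ccnd3 measured 78.5 ± 13.7 CPM in TAC and 94.9 ± 6.82 CPM in sham hearts (-0.27 ± 0.17, adjusted p = 0.352). In each of these 3 genes the groups did not overlap, which also held for the shares of all genes given above, and Ccnd1 and Ccnd2 were named after their values were seen. None passed in edgeR, and DESeq2 called Ccnd2 (adjusted p = 0.00818). The Cdk inhibitor genes Cdkn1a (37.1 ± 17.5 CPM in TAC, 42.7 ± 19.6 in sham hearts), Cdkn1b (8.37 ± 2.89 and 9.13 ± 1.98) and Cdkn1c (33.7 ± 13.0 and 31.3 ± 2.72) overlapped between the groups (adjusted p of 0.773, 0.813 and 0.833).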

How the data were processed

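The authors deposited FPKM and estimated counts per gene and library, per the file headers. The submitters' processing notes name GRCm38 as the build, and StringTie 1.3.4d, HISAT2 2.0.4 and cutadapt 1.9 as tools. How the count columns were made, the annotation release and the strand setting: not given in the sources used here. Library totals ran from 64023153 to 69992502 estimated counts.

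The estimated counts, already whole numbers, were tested with edgeR 4.0.16 (R 4.3.3; estimateDisp, glmQLFit, glmQLFTest) after scaling by library total. A gene was tested where its mean count over the libraries reached 10, and p-values were adjusted over all 15828. The SE is the size of the log2 fold change divided by the square root of F. Alternatives were other scalings and filters, DESeq2 1.42.0, limma 3.58.1 on log2(FPKM + 1) and log2(FPKM + 0.1), the replicate number as a block, lowess removal of GC and length trends (GENCODE M21), and each library left out. Counts divided by 4 were added after the steps in low counts were seen. The tests were also run on simulated counts, which lacked the steps seen in low counts, and no outcome is given here.

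Members and lists were chosen with earlier results of these data known. The text names all members and, of each further pathway list, up to 4 called genes or the 2 with the highest mean CPM. The D-type cyclins other than Ccnd3, the Cdk inhibitors and the 3 called overload markers were named after their values were seen. Of the leading genes of the marker lists only Myh7 is named. Near-identical stretches were found with blastn 2.17.0 between the longest transcript of each member and all GENCODE transcripts.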

Additional observations from a re-analysis of the deposited data

How the results depend on the processing

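Over all genes, the 120 calls became 719 with TMM scaling, 738 with DESeq2 size factors, 673 with library totals without mitochondrial genes, 357 when FPKM had to average at least 1, 21 with no filter, 286 with a mean count of 50 or more, 2420 with DESeq2, 310 with limma on log2(FPKM + 0.1), 308 with GC and length trends removed and 270 with counts divided by 4, and between 4 (without sham replicate 1) and 2358 (without TAC replicate 3) with a library left out; the cause was not tested. Among the members, DESeq2 called 1, and leaving out a library gave 0 to 1; 16 of 18 alternatives called 0, and their median log2 fold change lay between 0.07 and 0.86. Of the further pathway genes, TMM scaling, DESeq2 size factors, library totals without mitochondrial genes, the FPKM filter and the removed trends each called 1, DESeq2 called 8, and leaving out a library gave 0 to 7. The ratio of the members' summed level, 1.16 in TAC over sham, lay between 1.07 and 1.32.

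Signs of values that were not called turned as follows. With library totals without mitochondrial genes, Mcm5 was at 0.049, Aurkb at 0.00053, Cdkn1b at 0.035, Cenpa at 0.095 and Pola2 at 0.071. With trends removed, Mcm5 was at 0.081, Pcna at -0.21, Ccnd3 at 0.041, Ccng1 at -0.059, Cdkn1a at 0.016, Cenpa at 0.068 and Pola2 at 0.12. With a library left out, log2 fold changes spanned -0.32 to 0.068 for Mcm5, -0.72 to 0.11 for Aurkb, -0.098 to 0.71 for Cdc20, -0.36 to 0.73 for Prc1, -0.023 to 1.01 for Tpx2, -0.65 to 0.24 for Cdkn1a, -0.44 to 0.045 for Cdkn1b and -0.18 to 0.38 for Cdkn1c.

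The labels do not say whether the replicate numbers pair the samples. Same-numbered TAC and sham libraries correlated at -0.02, 0.05 and -0.02 in their deviations from the group means. Not every library correlated best with its own number. With 3 libraries per group, correlations this small cannot decide whether the numbers are pairs. With the replicate number as a block 38 genes were called, and none of the members. Of the members, 5 fell below the count filter and 9 were listed at 0 in 1 library or more, and the part of sequencing depth in this was not tested.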
